A study of Mus musculus with 4 samples.

Results

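The expression of 42 genes that drive or mark the mitotic cell cycle was followed in fetal mouse brain after maternal undernutrition. They were taken as a fixed list of gene names and split by role into 12 genes of the G1/S step, 14 genes of DNA replication and 16 genes of mitosis. All 42 had at least 1 probe, 69 probes in all, on an array that carried probes for 28104 named genes. The brightest probe above background stood for each gene.

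The study compared brain RNA from C57BL/6J fetuses of mothers on 2 regimens with that of fetuses from mothers given chow ad libitum. In the food deprivation group (FD) mothers went without food overnight on gestation day 17. In the food restriction group (FR) mothers received 50% of the control group's chow from day 10 to day 17, and fetuses were delivered by caesarean section on day 18, a day stated for FR and not separately for FD. RNA of 5 fetal brains was pooled per condition, and each treated pool was hybridized against a control pool on 2 dual-colour 60-mer arrays with the dyes exchanged. Whether 1 control pool served both comparisons was not stated. The 2 arrays of a comparison therefore repeat the measurement of the same 2 pools, and there is 1 pool per condition: their spread is technical, no p-value was computed, and differences between litters cannot be told apart from differences between diets.

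Cells enter the cycle when D-type cyclins with Cdk4 or Cdk6, and then E-type cyclins with Cdk2, release E2F transcription factors from the retinoblastoma proteins, and the Cdkn inhibitors hold this step back. E2F-driven genes then load the Mcm helicase on DNA and supply nucleotides and the polymerase clamp, and a later wave of genes, read from promoters with a CHR element and CCAAT boxes, runs chromosome segregation. In the late fetal brain these genes are used by the progenitors of the ventricular and subventricular zones and of the cerebellum, and most neurons have already left the cycle.

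Promoters are printed for members with the largest absolute ratios in their role group in at least 1 comparison. They were not chosen by sequence, and their motifs need not be typical of the group. RefSeq promoter windows (build GRCm38.p6, 250 bases before to 50 after the annotated start) were found for 34 of the 42 members, 38 windows in all. The motifs searched on both strands were the CHR (TTTGAA), the CCAAT box (CCAAT) and E2F sites in 2 spellings (TTCGCGC and TTGGCGC). Below, the 250 bases before the start are given 5′ to 3′ on the gene's strand, with matches on either strand in capitals. No printed match overlaps another.
Mki67 (chr7:135716380-135716629, minus strand): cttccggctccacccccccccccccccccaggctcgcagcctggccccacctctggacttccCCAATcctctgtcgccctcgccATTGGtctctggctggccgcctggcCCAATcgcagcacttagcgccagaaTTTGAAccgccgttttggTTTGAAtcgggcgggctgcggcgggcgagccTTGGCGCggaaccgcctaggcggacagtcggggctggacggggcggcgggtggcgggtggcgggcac
Cdc25b (chr2:131186698-131186947, plus strand): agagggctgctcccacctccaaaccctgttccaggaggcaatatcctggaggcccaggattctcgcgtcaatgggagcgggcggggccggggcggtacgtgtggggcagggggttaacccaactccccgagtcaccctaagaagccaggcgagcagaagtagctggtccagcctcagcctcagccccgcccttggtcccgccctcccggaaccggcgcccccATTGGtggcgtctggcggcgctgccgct
Mcm2 (chr6:88898781-88899030, minus strand): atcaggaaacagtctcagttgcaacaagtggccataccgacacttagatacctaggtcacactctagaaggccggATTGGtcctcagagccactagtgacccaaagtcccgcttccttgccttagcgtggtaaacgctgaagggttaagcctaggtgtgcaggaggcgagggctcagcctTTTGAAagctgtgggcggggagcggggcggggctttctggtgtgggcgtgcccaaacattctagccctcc
E2f1 (chr2:154569427-154569676, minus strand): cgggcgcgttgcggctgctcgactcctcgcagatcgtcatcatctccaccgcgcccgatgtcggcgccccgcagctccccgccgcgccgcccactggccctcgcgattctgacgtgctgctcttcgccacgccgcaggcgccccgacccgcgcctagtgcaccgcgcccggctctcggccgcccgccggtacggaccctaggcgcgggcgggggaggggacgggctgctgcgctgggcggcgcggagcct
The Mki67 promoter held 2 CHR, 3 CCAAT and 1 E2F match, the Mcm2 promoter 1 CHR and 1 CCAAT match, and the Cdc25b promoter 1 CCAAT match 28 bases before the start. The E2f1 window held none of these spellings, nor did the same stretch of Tk1 and Cdt1.

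The roles differed in these letters. A CHR match stood in the windows of 9 of the 13 mitosis genes with a window, 1 of 12 replication genes and 0 of 9 G1/S genes, against 17.9% of all 32851 promoter windows. CCAAT matches were found in 12 of 13 mitosis genes, 8 of 12 replication genes and 4 of 9 G1/S genes, with 37.4% of all windows holding one. The members are counted here by gene, and some have 2 windows. Counted by window, 4 of 12 G1/S windows, or 33.3%, held a CCAAT match. The E2F spelling TTGGCGC was found in 5 of 12 replication genes and 3 of 13 mitosis genes, and in 2.45% of all windows. The spelling TTCGCGC was found in 3 replication genes and 1 mitosis gene, and in 1.59% of all windows. These matches describe letters and not bound sites.

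Each array held 43379 spots that were not controls. Between 71.4% and 85.3% of them were well above background per channel. Genes were measured for 17951 names on both FD arrays, 18550 on both FR arrays and 16750 on all 4. All 12 radial glia and neural stem cell markers and all 15 markers of postmitotic neurons were well above background in every pool. The technical SD of a dye-swap mean, estimated from 15477 genes after removing the dye effect that the FD and FR arrays shared, was 0.0712 on the log2 scale. A mean further from 0 than 0.142, or 2 technical SD, is called beyond technical error here. This covers hybridization and not animals. Markers of cells foreign to brain tissue differed between pools. The summed signal of 12 skeletal muscle genes was 9469 to 9644 in the control of FD, 2478 to 2503 in FD, 3093 to 3144 in FR and 3085 to 3186 in the control of FR, with none of the 12 at background. That of 11 genes of meninges and fibroblasts was 31996 to 35965 in the control of FD, 26061 to 26955 in FD, 30449 to 33456 in FR and 28148 to 28422 in the control of FR, also with none at background. The collagen gene Col1a1 of this list had ratios of -0.90 and -0.75 in FD and 0.38 and 0.63 in FR. The list as a whole did not follow it. Its median was -0.08 in FD, with 4 of 9 measured means above 0, and -0.02 in FR, with 5 of 8 below 0. Neutrophil genes, given with the other cell types at the end, were higher in the FR pool. The part of these cells in the ratios was not tested.

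In the overnight-deprived brains the cell cycle genes sat close to their controls, with a tilt to lower values that was clearest among replication genes. Of the 42 genes 36 were measured on both FD arrays, and 30 of the 36 means were below 0, beside 8694 of all 17951 genes measured. The median log2(FD/control) was -0.04, with -0.01 on array 1 and -0.10 on array 2, against 0.00 for all genes measured. No member reached 1.2-fold in the same direction on both arrays, a mark that 2.18% of all genes passed, nor 1.5-fold, passed by 0.217%. The 1.5-fold calls over all genes were 16 higher and 23 lower; with median centring in place of loess they were 2 and 19, and with the scanner's own ratio 74 and 67. Both arrays gave the same sign in 18 of 36 members, 4 higher and 14 lower, beside 48.8% of all genes, 25.5% higher and 23.3% lower. With median centring the same sign was given by 0 higher and 1 lower, and the member median was -0.01 against 0.04 for all genes. Beyond 2 technical SD lay 11 of 36 members, 2 higher and 9 lower, of which 4 still did with median centring. Over all genes 22.5% passed that mark, 11.3% higher and 11.2% lower. In bulk RNA, fewer cells of a type and less RNA per cell cannot be told apart.

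**Figure D1:**
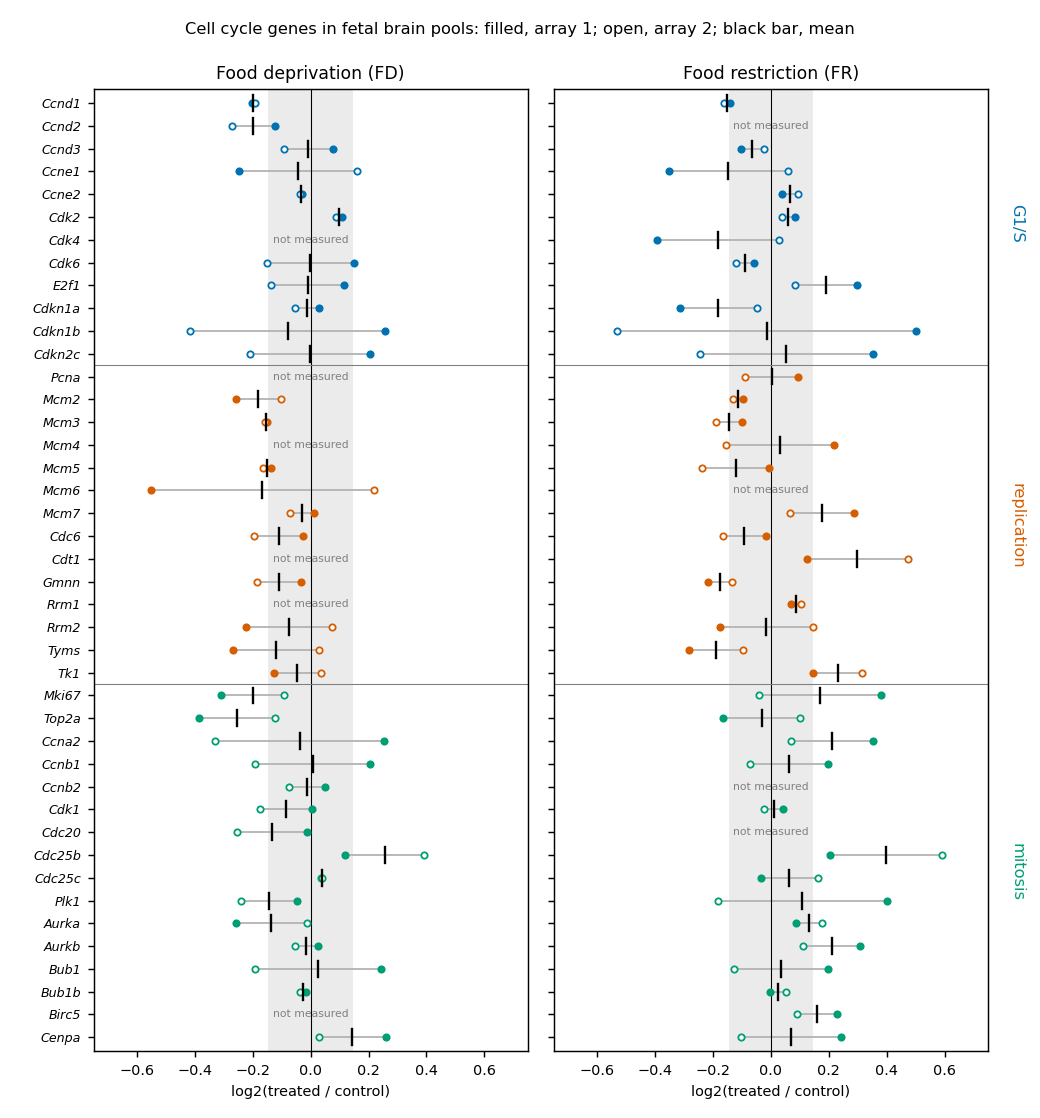
Log2(treated/control) of each gene (rows, grouped by role) in FD (left) and FR (right); filled and open points are arrays 1 and 2, black bars their mean, and the grey band is 2 technical SD either side of 0. All 10 measured replication genes have FD means below 0, while 13 of 14 mitosis genes have FR means above 0.

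Among the G1/S genes, only the D-type cyclins Ccnd1 and Ccnd2 lay beyond technical error in FD. Ccnd1, the partner of Cdk4 and Cdk6 that links growth signals to the cycle, is printed in 10 spots per array. Its log2 signal was 10.07 on both arrays in the control and 9.86 and 9.88 in FD. FD was thus lower on both arrays, as it was for 23.3% of all genes measured. The log2 ratios were -0.20 and -0.19, a 1.15-fold lower level, from 7 and 10 usable spots with SDs of 0.0647 and 0.164 between spots. Ccnd2, another D-type cyclin, had log2 ratios of -0.12 and -0.27 and a mean of -0.20. With median centring the means of Ccnd1 and Ccnd2 were -0.13 and -0.08, inside 2 technical SD. The kinase Cdk2 was at 0.11 and 0.09, the only member of the G1/S group above 0 on both arrays. The inhibitor Cdkn1b was at 0.26 and -0.42, opposite signs on the 2 dye orientations, so its mean of -0.08 carries little information. Its other 2 measured probes gave means of -0.14 and 0.03. The remaining G1/S genes (Ccnd3, Ccne1, Ccne2, Cdk6, E2f1, Cdkn1a and Cdkn2c) had means between -0.04 and 0. The group median was -0.01, and 0.03 under median centring.

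The replication genes had a median of -0.11 in FD, with -0.14 and -0.09 on the arrays, and all 10 measured means lay below 0. Under median centring the group median was -0.05. The Mcm proteins form the ring helicase that unwinds DNA at the origin. Mcm2 had log2 signals of 9.44 and 9.35 in the control and 9.18 and 9.24 in FD. Its ratios were -0.26 and -0.10, a 1.13-fold lower level. Mcm3 had ratios of -0.15 and -0.16, and Mcm5 of -0.14 and -0.16. These 3 subunits were lower on both arrays, as 23.3% of all genes measured were. Mcm6 had the same size of mean, -0.17, from arrays of opposite sign, -0.55 and 0.22. Mcm7 was near 0, at 0.01 and -0.07. Cdc6, which licenses origins, and geminin (Gmnn), which blocks a further round of licensing, each had a mean of -0.11. The nucleotide enzymes Tyms, Rrm2 and Tk1, which make or salvage thymidylate and deoxynucleotides, had means of -0.12, -0.08 and -0.05, each with opposite signs on the 2 arrays.

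The mitosis genes spread to both sides in FD around a median of -0.03, which median centring put at 0.00. Top2a, the topoisomerase that untangles replicated DNA, had log2 signals of 8.55 and 8.37 in the control and 8.17 and 8.25 in FD. Its ratios were -0.38 and -0.12, and its mean of -0.25, 1.19-fold lower, was the lowest of all members. Mki67, the proliferation antigen that coats mitotic chromosomes, had ratios of -0.31 and -0.09 on its brighter probe and -0.26 and -0.03 on its dimmer probe. Both probes were thus lower on both arrays. Plk1, a kinase of mitotic entry, was at -0.05 and -0.24. On the other side stood Cdc25b, a phosphatase that switches Cdk1 on, and Cenpa, the histone variant of centromeres. Cdc25b had signals of 9.22 and 9.33 in the control and 9.34 and 9.72 in FD, with ratios of 0.12 and 0.39. Its second measured probe gave -0.10 and 0.11, so the higher value rests on 1 probe. Cenpa was at 0.26 and 0.03. The cyclins Ccna2, Ccnb1 and Ccnb2 and the checkpoint kinases Bub1 and Bub1b had means between -0.04 and 0.02.

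Of the members, 6 could not be read in FD because a spot was marked as an outlier on at least 1 array: Cdk4, Pcna, Mcm4, Cdt1, Rrm1 and Birc5. With such spots kept, an alternative chosen after the data were seen, their means ranged from -0.12 for Pcna, the polymerase clamp, to 0.07 for Cdt1. All 42 members then had a value and the median was -0.05.

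After the week of restriction the 3 roles parted, with mitosis genes on the higher side. Of 38 members measured on both FR arrays, 23 had means above 0, beside 9593 of all 18550 genes measured. The median log2(FR/control) was 0.03, with 0.07 and -0.02 on the arrays, against 0.01 for all genes. Under median centring it was -0.01, against 0.00 for all genes. No member reached 1.2-fold on both arrays, against 8.05% of all genes, or 1.5-fold, against 1.01%. The 1.5-fold calls over all genes were 108 higher and 80 lower, which became 31 and 6 under median centring and 9 and 4 when spots with a bright local background were kept in the background fit. Both arrays gave the same sign in 22 members, 12 higher and 10 lower, beside 55.7% of all genes, 28.3% higher and 27.4% lower. These counts were 0 and 1 with median centring, and 8 and 12 with bright-background spots kept in the fit. Beyond 2 technical SD lay 16 of 38 members, 9 higher and 7 lower, of which 13 and 10 still did under these 2 settings. Over all genes 34.6% passed that mark, 17.6% higher and 17% lower.

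The mitosis genes had a median of 0.09 in FR, 0.20 on array 1 and 0.06 on array 2, and 13 of 14 measured means were above 0. These are means of the brightest probe: the other 2 measured probes of Ccnb1 had means of -0.06 and -0.14, and the other probe of Bub1 -0.11. Of the 13, 5 were beyond 2 technical SD, all higher. Among them, Mki67 and Birc5 came inside that mark with median centring, at 0.11 and 0.09. Cdc25b again had the highest ratio of all members. Its signals were 9.42 and 9.24 in the control and 9.63 and 9.83 in FR, and its ratios 0.20 and 0.59, a 1.32-fold higher level. Its second probe gave 0.03 and 0.37. Ccna2, the cyclin of S phase and mitotic entry, had signals of 10.27 and 10.45 in the control and 10.62 and 10.52 in FR. Aurkb, the kinase that corrects spindle attachment, had signals of 7.99 on both control arrays and 8.30 and 8.10 in FR. Each of these 2 genes was higher on both arrays, by a mean of 0.21. Over all genes 28.3% were higher on both arrays. The survivin gene Birc5, a partner of Aurkb, was at 0.23 and 0.09. The dimmer probe of Mki67 was at 0.38 and -0.04, and its brighter probe was readable on array 2 alone, at 0.31. Aurka, the kinase of spindle poles, was at 0.09 and 0.18. Top2a, lowest in FD, was at -0.17 and 0.10 in FR.

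Replication genes in FR lay on both sides of 0 and had a median of -0.02. Cdt1, which brings the Mcm ring to the origin, had ratios of 0.12 and 0.47, and Tk1, the thymidine kinase of S phase, of 0.15 and 0.31. Mcm7 was at 0.29 and 0.07. Against these, Tyms, the enzyme of thymidylate synthesis, was at -0.28 and -0.10, the geminin gene Gmnn at -0.22 and -0.13, and Mcm3 at -0.10 and -0.19. All 6 had the same sign on both arrays and means beyond 2 technical SD. With bright-background spots kept in the fit, Cdt1, Tk1, Mcm7 and Mcm3 had means of 0.14, 0.10, 0.05 and -0.06, inside that mark. Mcm7 was also inside it with median centring, at 0.11, and Tyms with probes averaged, at -0.12. Genes of 1 complex thus differed in sign, as Mcm7 did from Mcm2, Mcm3 and Mcm5, whose means were -0.11, -0.14 and -0.12. Pcna was at 0.09 and -0.09.

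G1/S genes had a median of -0.06 in FR. Ccnd1 was again lower, with signals of 10.08 on both control arrays and 9.94 and 9.92 in FR and ratios of -0.14 and -0.16. With bright-background spots kept in the fit its mean was -0.11, inside 2 technical SD. E2f1, the activator of S phase genes, stood on the other side. Its signals were 7.69 and 7.83 in the control and 7.99 and 7.92 in FR, and its ratios 0.30 and 0.08. A second measured E2f1 probe gave -0.15 and 0.27, opposite signs. With probes averaged the E2f1 mean was 0.12, inside 2 technical SD. Cdkn1a, the inhibitor induced by p53, was at -0.31 and -0.05. Cdk4 and Ccne1 had means of -0.18 and -0.15, each with arrays of opposite sign. Cdkn1b had the widest split between dyes of all members, 0.50 and -0.53. In FR 4 members were not readable for outlier spots: Ccnd2, Mcm6, Ccnb2 and Cdc20. With those spots kept, Cdc20, the activator of the anaphase-promoting complex, was at 0.49 and 0.33, the only member past 1.2-fold on both arrays, and Mcm6 had a mean of -0.16.

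**Figure D2:**
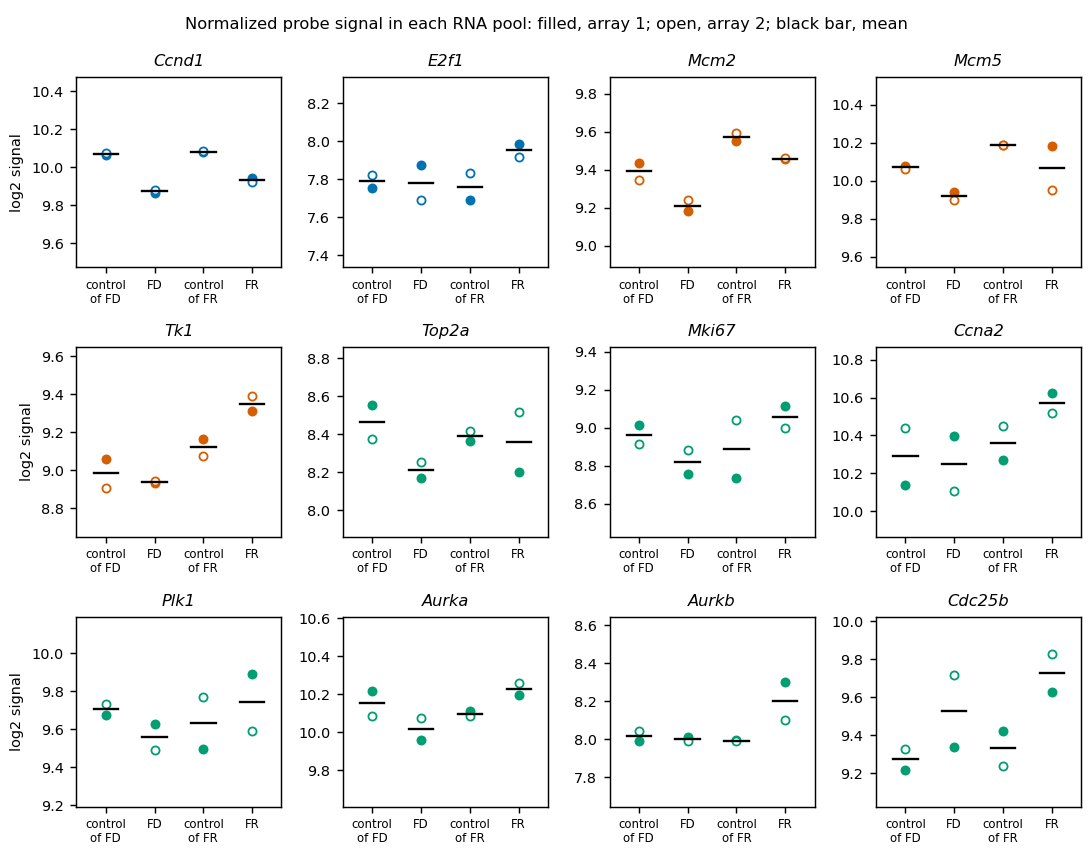
Normalized log2 signal of 12 genes in treated and control RNA of the FD and FR arrays; filled and open points are arrays 1 and 2, black bars their mean, and every panel spans 1 log2 unit. Ccnd1 is lower in both treated pools than in both controls, and Aurkb and Tk1 are highest in the FR pool.

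The FD and FR ratios were then set against each other at equal dye orientation, which removes the dye effect of each probe. Of 32 members measured on all 4 arrays 24 had a lower ratio in FD than in FR, beside 8407 of all 16750 genes measured. The median difference was -0.06, on the arrays -0.06 and -0.06, against 0.00 for all genes. Under median centring this median was -0.01, against 0.04 for all genes. Tk1 was the only member 1.2-fold apart on both arrays, which 5.34% of all genes were. With median centring, or with bright-background spots kept in the fit, 0 members were, and with outlier spots kept 3 were. None was 1.5-fold apart, against 0.34% of all genes. Those 1.5-fold calls over all genes were 12 higher and 45 lower in FD, 31 and 35 under median centring, 2 and 26 with bright-background spots kept in the fit, 36 and 68 with an offset of 10, and 136 and 124 with the scanner's own ratio. Both orientations gave the same sign in 19 members, 4 higher and 15 lower in FD, beside 61.3% of all genes, 31.2% higher and 30.1% lower. Beyond 2 technical SD of a difference, 0.201, lay 8 members, all lower in FD. Of these 1 remained beyond it with median centring and 2 with bright-background spots kept in the fit. Over all genes 18.2% passed that mark, 9.07% higher and 9.14% lower.

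Of the 24 members with lower ratios in FD than in FR, 12 were mitosis genes, 7 replication genes and 5 G1/S genes. Of the 8 beyond 2 technical SD, 6 were mitosis genes. The mitosis group had a median difference of -0.14, with -0.08 and -0.12 on the arrays, and 12 of 13 means below 0. The medians were -0.06 for replication, 0.05 under median centring, and -0.01 for G1/S, 0.03 under median centring. For mitosis the median stayed below 0 under each scaling tried, between -0.16 and -0.10. Tk1 differed by -0.27 and -0.28 at the 2 dye orientations. Aurka differed by -0.35 and -0.19, lower in FD and higher in FR than their controls on every array. Top2a differed by -0.22 on both, Ccna2 by -0.10 and -0.40, Plk1 by -0.45 and -0.06, and Aurkb by -0.29 and -0.16. In all 6 genes both orientations gave the same sign. Mki67 had the widest gap between orientations, -0.63 and 0.01 on its dimmer probe; on its brighter probe with outlier spots kept the differences were -0.44 and -0.40. The first 30 bases of the brighter probe (mm9 chr7:142881591-142881650) and of the dimmer one (mm9 chr7:142886012-142886071) show that they read separate stretches of the transcript.
Mki67 brighter probe: atactactgctactgcctgagtttaaggaa
Mki67 dimmer probe: tgcttccagcaagaggtatgtatcacctga
On the other side of 0 the highest members were Cdkn1a at 0.17 and Ccne1 at 0.10. Cdc20, read with outlier spots kept, differed by -0.51 and -0.58.

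**Figure D3:**
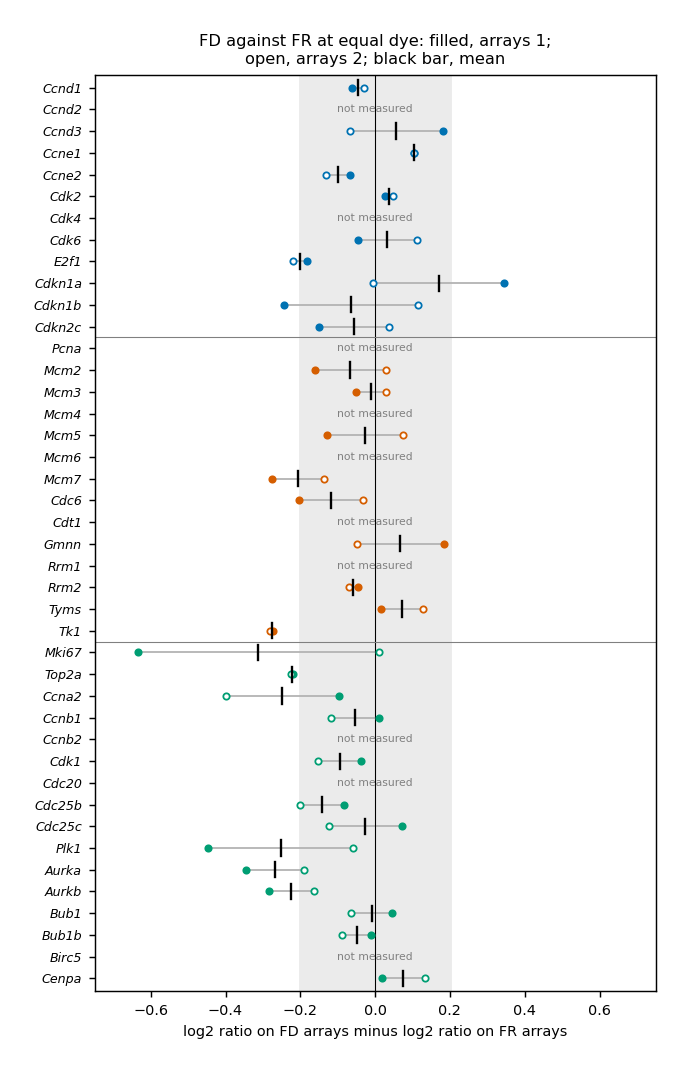
Log2 ratio on the FD arrays minus that on the FR arrays for each gene (rows, by role); filled points subtract the arrays with treated RNA in Cy5, open points those with treated RNA in Cy3, black bars are means and the grey band 2 technical SD of a difference. In the mitosis group 12 of 13 means are below 0.

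Treated and control signals were also compared one by one. For mitosis genes the FD pool minus the FR pool gave a median log2 difference of -0.18, with 12 of 13 genes below 0, while control RNA on the FD arrays minus control RNA on the FR arrays gave -0.02, with 7 of 13 genes below 0. For replication genes 8 of 9 differences were below 0, with a median of -0.12, and the control signals gave -0.11, also with 8 of 9 below 0. For G1/S genes the medians were -0.01 between treated signals and 0.01 between control signals. Over all genes 51.2% of the differences between treated pools and 52.4% of those between controls were below 0, with medians of -0.005 and -0.007. These are levels of the same probe compared across arrays after quantile scaling of the average signal. If 1 control pool served both comparisons, the control differences are differences between arrays. The 2 controls were, however, far apart in the summed signal of skeletal muscle genes. It was 9469 to 9644 in the control of FD and 3085 to 3186 in the control of FR. The source of this gap was not tested.

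**Figure D4:**
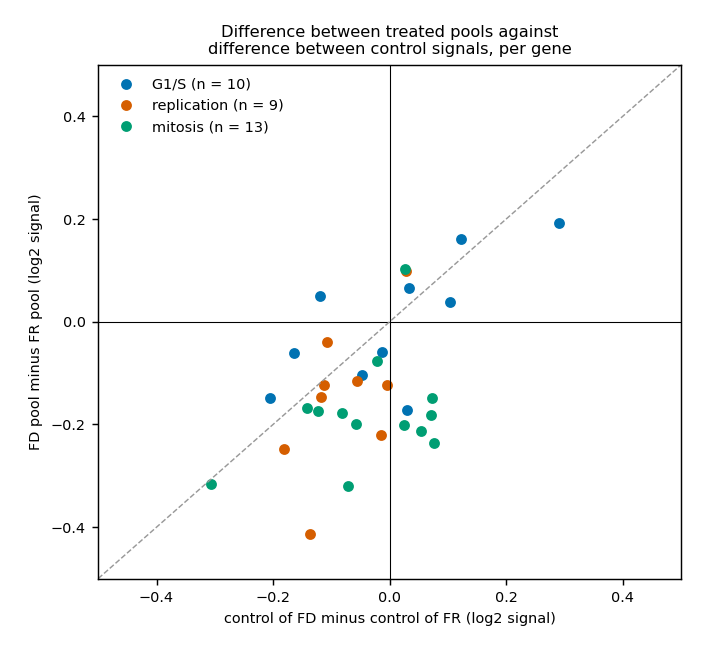
Per gene, the log2 signal of the FD pool minus the FR pool (vertical) against the control of FD minus the control of FR (horizontal), coloured by role; the dashed line marks equal differences. Mitosis genes lie below 0 on the vertical axis in 12 of 13 cases and on both sides of 0 on the horizontal axis.

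The CHR match and the mitosis role largely coincide, and the data cannot tell them apart. The 8 measured members with a CHR match had a median FD-FR difference of -0.16, with 7 below 0. The 18 without one had a median of -0.04, with 12 below 0. In FD 9 of 10 members with the motif had means below 0 and a median of -0.14, beside -0.03 for the 19 without it. In FR the medians were 0.05 and 0.00.

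Other genes of the same pathways were taken from lists made for the purpose. These lists were drawn up with earlier results of these data known. In FD the 27 measured other G1/S regulators had a median of -0.01, the 45 other replication factors -0.01, the 66 other mitosis genes -0.04 and the 20 p53 targets and checkpoint genes 0.00. Median centring put the first 2 lists at 0.05 and 0.03. Uhrf1, which carries DNA methylation through replication, was at -0.54 and -0.24, the lowest of the replication factors, and the polymerase subunit gene Pold1 was at -0.08 and -0.56. Chaf1b, a chaperone that places histones on new DNA, was highest at 0.23 and 0.52. E2f2, a sister of E2f1, was at -0.19 and -0.32, and the kinase gene Cdc7, which fires origins, at -0.16 and -0.17. Of the mitosis genes, Mad2l1 of the spindle checkpoint was at 0.33 and 0.23 and the kinetochore gene Spc24 at -0.02 and -0.51. The p53 gene Trp53 was at -0.12 and -0.21 and its inhibitor Mdm2 at 0.31 and 0.17. Past 1.2-fold on both arrays was 1 of these genes, Pola1, the catalytic subunit of the priming polymerase, at -0.31 and -0.30; it is named here for passing that mark.

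In FR the same lists, which together hold more genes than the 42 members, held larger single differences. The medians were 0.06 for 27 other G1/S regulators and -0.07 for 42 other replication factors. They were 0.03 for 66 other mitosis genes and 0.06 for 19 p53 targets and checkpoint genes. Array medians lay on both sides of 0 for replication factors, 0.02 and -0.02, and for other mitosis genes, 0.03 and -0.02. The replication factors had a median of -0.01 with bright-background spots kept in the fit and -0.08 with median centring. Past 1.2-fold on both arrays, as 8.05% of all genes were, lay 8 of the 42 replication factors, 5 higher and 3 lower. Of the 66 mitosis genes 4 did, all higher, and of the 27 G1/S regulators 1 did, the kinase gene Cdk7 at 0.41 and 0.31. Of the 19 p53 targets and checkpoint genes 2 were higher and 1 lower. Pold3, a polymerase delta subunit, was at 0.80 and 0.97 and Chaf1b at 0.65 and 1.00. Pola1 was again lower, at -0.67 and -0.78, and Pole4, a small subunit of polymerase epsilon, at -0.42 and -0.56. Subunits of the replicative polymerases thus lay on both sides of 0. Pkmyt1, a kinase that restrains Cdk1, was at 0.58 and 0.38, and Cdca3, a trigger of mitotic entry, at 0.63 and 0.43. Lin54, the subunit of the DREAM complex that binds the CHR, was at 0.43 and 0.24 in FR and 0.24 and 0.18 in FD. Among the p53 targets Btg2 and Pmaip1 had means of 0.38 and 0.39 and Ccng1 of -0.40.

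**Figure D5:**
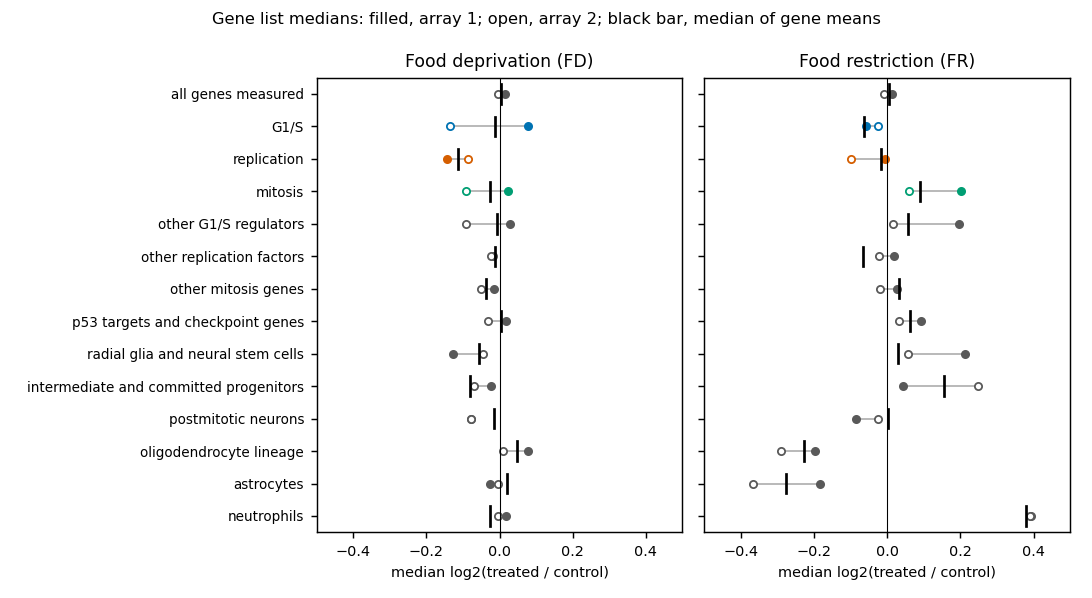
Median log2(treated/control) of the role groups and of a selection of the other gene lists in FD (left) and FR (right). Filled and open points are the medians on arrays 1 and 2 and black bars the medians of gene means. The microglia, erythroid, endothelial, meninges and skeletal muscle lists are not drawn. Of these, skeletal muscle had a median of -1.78 in FD. The black bars of the 3 role groups lie between -0.11 and 0.09, their array medians between -0.14 and 0.20, and the black bars of the astrocyte, oligodendrocyte, committed progenitor and neutrophil lists lie further out in FR.

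Cell type markers moved beside these genes, and their part in the results was not tested. In FR the 10 measured markers of intermediate and committed progenitors had a median of 0.15, 0.05 with bright-background spots kept in the fit, with Btg2 and Mfng at 0.38 and 0.36. Their summed signal was 13429 to 14472 in the FR pool, 11918 to 12247 in its control, 11480 to 11840 in FD and 11803 to 11876 in the control of FD. Radial glia and neural stem cell markers had a median of -0.06 in FD, with 2 of 9 measured means above 0. Nes was at -0.27 and -0.22 there, and Slc1a3 at 0.08 and 0.32. The median of these markers in FR was 0.03, -0.03 with bright-background spots kept in the fit. In FR 6 of their 9 measured means were above 0, the highest at 0.27, and Hes5 was at -0.55 and -0.33. Their summed signal was 75965 to 109390 over all pools and higher in the Cy5 channel of every array. The 9 measured astrocyte markers had a median of -0.28 in FR, -0.10 with bright-background spots kept, with sums of 16116 to 16585 in FR and 19209 to 19712 in its control. The 10 oligodendrocyte lineage markers had a median of -0.23, or -0.12 with those spots kept, with sums of 9932 to 10282 in FR and 11623 to 11887 in its control. Neutrophil genes, whose precursors divide outside the brain, had a median of 0.38 over 6 measured genes in FR, 0.20 with those spots kept. Their sum was 2057 to 2105 in the FR pool and 1257 to 1367 in its control, with Elane and Lcn2 not above background in either. In FD 6 of 14 erythroid genes were measured, with a median of -0.09 and Slc4a1 at -0.42 and -0.41. In FR 6 were measured, with a median of 0.07, or 0.02 with bright-background spots kept. There 4 means were above 0, with Hba-x and Hbb-y each at 0.38. Erythroid sums were 25357 to 33612 in FD and 32629 to 39865 in its control. They were 38262 to 47174 in FR and 33379 to 42402 in its control. Epb42 was not above background in any pool, nor Hbb-bh1 in the FD pool. The erythroid sums were higher in the Cy5 channel of every array, so the 2 FR arrays gave opposite directions.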

How the data were processed

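Brain RNA of 3 conditions (FD, FR and ad libitum control) was measured on 4 dual-colour Agilent arrays. Per the file headers and the submitters' processing notes, Agilent Feature Extraction 9.5.3.1 made the deposited files. Per the file headers they give raw mean and background intensity per channel, a background-corrected and dye-normalized log10 ratio, and other columns of flags per spot. The deposited value table holds log2 ratios: set against the scanner's ratio they had the same scale and centring and the direction treated over control, with column medians of -0.033 and 0.034 (FD) and -0.029 and 0.0096 (FR).

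Spots whose local background exceeded 2 array medians (3, 0, 0 and 44 per array) were first removed. In limma 3.58.1 (R 4.3.3), normexp with an offset of 50 corrected the intensities and a loess per array normalized them. Spots marked as outliers were dropped. A probe counted as measured if, in each channel of both arrays of a comparison, a share of at least 0.5 of its spots was well above background. Dye swaps were turned and averaged. Pool signals were compared within a probe after scaling the average signal to equal quantiles. The steps were tested on simulated data. No model across samples was fitted, since each condition is 1 pool.

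Probes were named by accession through RefSeq (26910 of 41174), else by current or older symbol (5088 and 816), else as the files name them (8360). The older-symbol search also found 2 probes of other genes, which were left out. The genes given array by array are, in each role group and comparison with control, the 4 with the highest absolute mean, the 4 highest of the FD-FR difference, and extremes of each further list. Further members were given array by array to account for each role, a choice made after their values were seen. The members and lists were chosen with earlier results of these data known. Motif shares carry no test. Exon and UTR annotation of probes was not used here.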

Additional observations from a re-analysis of the deposited data

Results flagged for a closer look

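For 2 genes both FD arrays gave one sign and both FR arrays the other, a difference that was not tested. Aurka had log2 ratios of -0.26 and -0.01 in FD and 0.09 and 0.18 in FR, a difference of -0.2678. Ccne2, an E-type cyclin, had -0.03 and -0.04 in FD and 0.04 and 0.09 in FR, a difference of -0.0990, which is below 2 technical SD. The second measured probe of Ccne2 gave 0.06 and -0.16 in FD and 0.13 and -0.07 in FR, so its pattern rests on 1 probe.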

How the results depend on the processing

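Over the alternatives run the member median lay between -0.10 and -0.01 in FD, and between -0.02 and 0.07 in FR, below 0 there without replicate 1 and with median centring. Tk1 passed 1.2-fold in FD against FR neither with median centring nor with normexp fitted on all spots, where 0 members did, and 3 did with outlier spots kept. In FD and in FR 1 member each passed it with the scanner's ratio or the deposited table, against 0. The sign of each member mean beyond 2 technical SD was kept under the other normalizations, the deposited table, averaged probes and outlier spots kept. Beyond that mark stayed 4 of 11 in FD, 13 of 16 in FR and 1 of 8 in FD against FR with median centring, and 11, 10 and 2 with normexp fitted on all spots. The median FD-FR difference of the members, -0.06, became -0.00824 with median centring, -0.0904 with normexp fitted on all spots, -0.0627 with an offset of 10, -0.0768 with the scanner's ratio or the deposited table and -0.0786 with outlier spots kept. Without replicate 1 or 2 it was -0.0649 to -0.0611. Counts of genes past 1.5-fold moved most. In FD the 39 genes became 21 with median centring, 70 with an offset of 10, 141 with the scanner's ratio or the deposited table, and 93 to 180 on single arrays. In FR the 188 genes became 37, 354, 605 and 479 to 552 in the same order, and 13 with normexp fitted on all spots. For FD against FR the 57 genes became 28 with normexp on all spots, 104 with an offset of 10, 260 with the scanner's ratio or the table, and 128 to 187 on single arrays. The members' median difference between the control signals, -0.0350, became -0.0926 with median centring and -0.0420 to -0.00890 on single arrays. The number of lists with a median below 0 in FD, 11 of 15, became 7 with median centring. The cause of these moves was not tested. Single-array counts rise by construction, since 1 array need not be matched by the other. Of the values of single genes 43 moved and 1017 did not. Of 106 such values 26 changed sign with median centring, 29 without replicate 1 and 18 without replicate 2. The rule of 2 technical SD and the setting with outlier spots kept were chosen after seeing the data. No paired analysis was possible because arrays 1 and 2 of a comparison are the dye swap of the same 2 pools and the values come from no test. By construction the offset pulls ratios of the dimmest members, such as Cdk2, toward 0.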
